A study of Mus musculus with 18 samples.

Results

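Within the 18 RNA libraries of BMC brown adipocytes, 12 were set against each other by the last digit of their titles. The 6 libraries with replicate number 3 or 6 formed one set and the 6 with number 2 or 5 the other. The sets were chosen from the data, by the likeness of whole expression profiles among libraries with these numbers, and no label names them. Each set holds 2 libraries labelled 0 h, 2 labelled 4 h and 2 labelled 24 h, so no time belongs to a set. The remaining 6 libraries, with numbers 1 and 4, serve only for reference levels.

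All cells were BMC, immortalised murine brown preadipocytes grown to confluence and taken through differentiation to day 7. The induction medium held insulin (20 nM), triiodothyronine (1 nM), dexamethasone (1 µM), indomethacin (0.125 mM) and isobutylmethylxanthine (0.5 mM). Libraries labelled 0 h were not induced with norepinephrine, and those labelled 4 h and 24 h were collected after 1 µM of it. The labels give batch 1 for every library and name no separate cultures, so the spread between libraries may be technical. They do not record what the replicate numbers stand for.

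Brown adipocytes store triglyceride, break it down when norepinephrine raises cyclic AMP through beta-adrenergic receptors, and oxidise the fatty acids in their mitochondria to make heat. Glucose enters them through glycolysis, whose enzymes are encoded by genes that hypoxia-inducible factor can switch on when oxygen is scarce. Cells make cholesterol through a chain of enzymes whose genes share one regulator, SREBP2, which is activated when membrane sterol is low.

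Library totals were 8924675 to 23982104 in numbers 3 and 6 and 7010727 to 22875426 in numbers 2 and 5 (exact permutation test, two-sided, p = 0.303, adjusted 0.303). Genes with a count numbered 19679 ± 785 and 18844 ± 1482 (SD, n = 6 each; exact permutation p = 0.264, adjusted 0.303). The library labelled 24 h with number 5 stood apart. Genes that collect ribosomal RNA reads, Yam1 and Gm26917, took 41.5% of its counts, against 6.78% to 9.32% in the other libraries of its set and 6.93% to 7.65% in numbers 3 and 6. Mitochondrial protein transcripts took 2.91% of its counts, against 7.93% to 8.51% and 8.48% to 9.81%. The set, time, interaction and number contrasts were therefore repeated without it, and its part in the differences beyond that was not tested. Defining adipocyte markers were present throughout, with 540 to 876 CPM of Adipoq and 1819 to 2458 CPM of Fabp4, whereas Dio2 reached at most 0.771 CPM. Markers of dividing cells were also present (Mki67, 579 to 649 CPM). Myod1, Myf5, Cdh5, Tie1 and Adgre1 had no count in any of the 12 libraries, and Ptprc, Myog, Ckm and Sox10 had at most 1. Other markers of the same cell types were detected at low levels. Acta1 of skeletal muscle had 0.487 to 3 CPM (log2 fold change -1.72) and Cd68 of macrophages 2.39 to 3.96 CPM. Syt1, Tek, Kdr, Csf1r and Pecam1 reached 25, 16, 15, 12 and 10 counts.

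On the first principal component of log2 expression, which held 43.6% of the variance, numbers 3 and 6 scored 24.9 to 32.9 and numbers 2 and 5 scored -38 to -24. The 24 h library with number 5 alone lay far out on the second component (22.3% of the variance), at 60.2. For the median gene the number set accounted for 40.4% of the variance among the 12 libraries and labelled time for 8.25%.

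**Figure D1:**
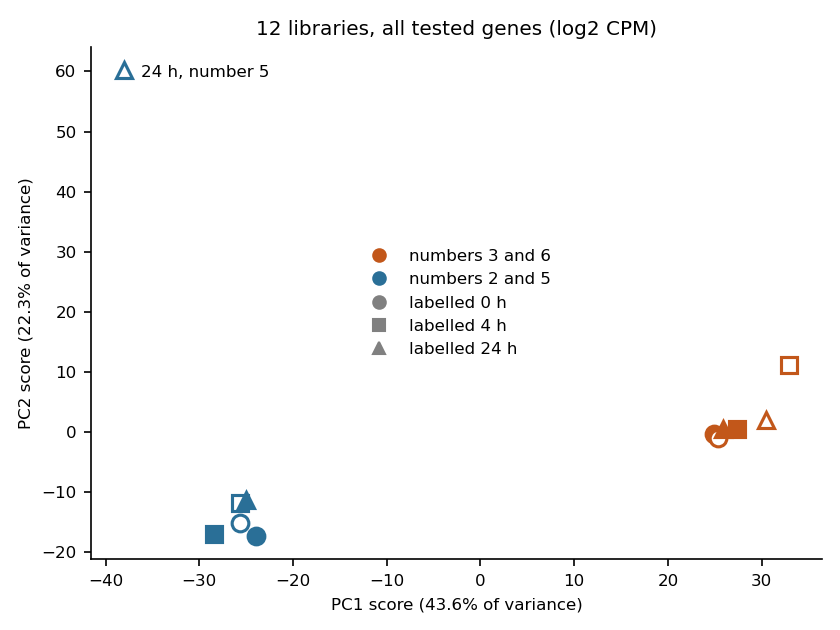
Scores of the 12 libraries on the first 2 principal components of log2 CPM over 14442 tested genes. Orange marks numbers 3 and 6, blue numbers 2 and 5; circles, squares and triangles mark labelled 0 h, 4 h and 24 h; filled symbols are numbers 2 and 3, open ones numbers 5 and 6. The sets lie apart on PC1 at every labelled time, and the 24 h library with number 5 lies at 60.2 on PC2.

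Of 14442 tested genes, 4081 (28.3%) were higher and 3932 (27.2%) lower in numbers 3 and 6 by edgeR's quasi-likelihood threshold, an adjusted p under 0.05 with labelled time in the model. A log2 fold change of at least 1 was reached by 421 of the higher genes (2.92%) and 301 of the lower ones (2.08%). The lowest library of numbers 3 and 6 exceeded the highest of numbers 2 and 5 for 2116 genes (14.7%), and 2268 genes (15.7%) lay the other way without overlap. Because the sets were formed on these values, the counts describe the contrast and no test is drawn from them. In what follows "higher" and "lower" of a gene list mean this threshold. Every list count stands beside the 28.3% higher and 27.2% lower of all tested genes. A list near these shares does not stand out. The median log2 fold change over all tested genes was 0.0049. Scaling by library totals alone moved the median gene by 0.26 in log2 and turned the split into 2755 higher and 439 lower. Values given below with library totals alone include this shift of all genes. Without the 24 h library with number 5 the counts were 4033 and 4041.

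The largest differences among well-measured genes ran in both directions. G0s2, the inhibitor of adipose triglyceride lipase (chromosome 1, 193272161 to 193273217, mm10), had 114 to 143 CPM (median 127) in numbers 3 and 6 and 21 to 37 CPM (median 26.5) in numbers 2 and 5. Its log2 fold change was 2.32 (SE 0.12), and the sets did not overlap. C4b, a complement component (chromosome 17, 34728380 to 34743882), had 115 to 152 CPM (median 129) in numbers 3 and 6 and 23 to 33.4 CPM (median 27.4) in numbers 2 and 5, with a log2 fold change of 2.22 (SE 0.064) and no overlap. Adrb3, the beta-3 adrenergic receptor through which norepinephrine acts on fat cells (chromosome 8, 27225776 to 27250616), had 85.5 to 105 CPM (median 93.4) in numbers 3 and 6 and 24.3 to 32.1 CPM (median 25.6) in numbers 2 and 5. Every library of numbers 3 and 6 lay above every library of numbers 2 and 5 for Adrb3, and the log2 fold change was 1.82 (SE 0.05). C4b has a close copy, C4a, so its own level is uncertain.

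Mb, which encodes the oxygen-binding protein myoglobin (chromosome 15, 77015487 to 77050670), led the lower genes. It had 1.29 to 2.9 CPM (median 2.45) in numbers 3 and 6 and 27.4 to 39.9 CPM (median 34.1) in numbers 2 and 5, a log2 fold change of -3.86 (SE 0.12). Ucp1 encodes the mitochondrial uncoupling protein through which brown fat makes heat (chromosome 8, 83290352 to 83298452). It had 1.09 to 2.65 CPM (median 1.8) in numbers 3 and 6 and 9.32 to 10.9 CPM (median 10.6) in numbers 2 and 5. The 2 sets were far apart for Ucp1, with a log2 fold change of -2.51 (SE 0.14). Scd3, a fatty acid desaturase, had 7.19 to 10.1 CPM (median 8.63) in numbers 3 and 6 and 47.7 to 68.7 CPM (median 60.5) in numbers 2 and 5, and a log2 fold change of -2.76 (SE 0.082); it shares sequence with Scd1, which was lower as well, at -1.15 (SE 0.071) in log2. None of these genes overlapped between the sets, so the same direction at each labelled time was fixed in advance. Only the sizes are given. At 0 h, 4 h and 24 h the log2 difference was 2.26, 2.29 and 2.22 for G0s2, -3.80, -3.83 and -3.91 for Mb and -2.51, -2.46 and -2.57 for Ucp1.

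Other genes among the 12 with the largest positive difference were Cemip (2.03), a hyaluronan-degrading protein, Mn1 (1.99), Adamts5 (1.81), an aggrecan-cleaving protease, and Hp (1.74), haptoglobin. Msmo1 (1.74), Nov (1.73), Ccnd1 (1.67), cyclin D1, Slit3 (1.61) and Tle2 (1.59) complete them. The 24 h library with number 5 was the highest of its set for all of these but Msmo1, and for G0s2 and C4b. Without it the values were 2.12 for Cemip, 1.80 for Nov, 1.67 for Slit3, 1.77 for Ccnd1 and 1.64 for Tle2. They were 2.01 for Mn1, 1.81 for Adamts5, 1.78 for Hp, 2.37 for G0s2 and 2.23 for C4b. On the lower side stood Pgk1 (-2.01) and its near copy Pgk1-rs7 (-2.19), Gapdh (-1.99), Fbxo32 (-1.95), a ubiquitin ligase of muscle wasting, and Nhsl1 (-1.94). Cbr2 (-1.93), a carbonyl reductase, Kitl (-1.85), the ligand of the Kit receptor, Ero1l (-1.83), Tmem140 (-1.82) and Trim66 (-1.82) were lower too. None of these 24 genes overlapped between the sets, which the rule for naming them required.

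**Figure D2:**
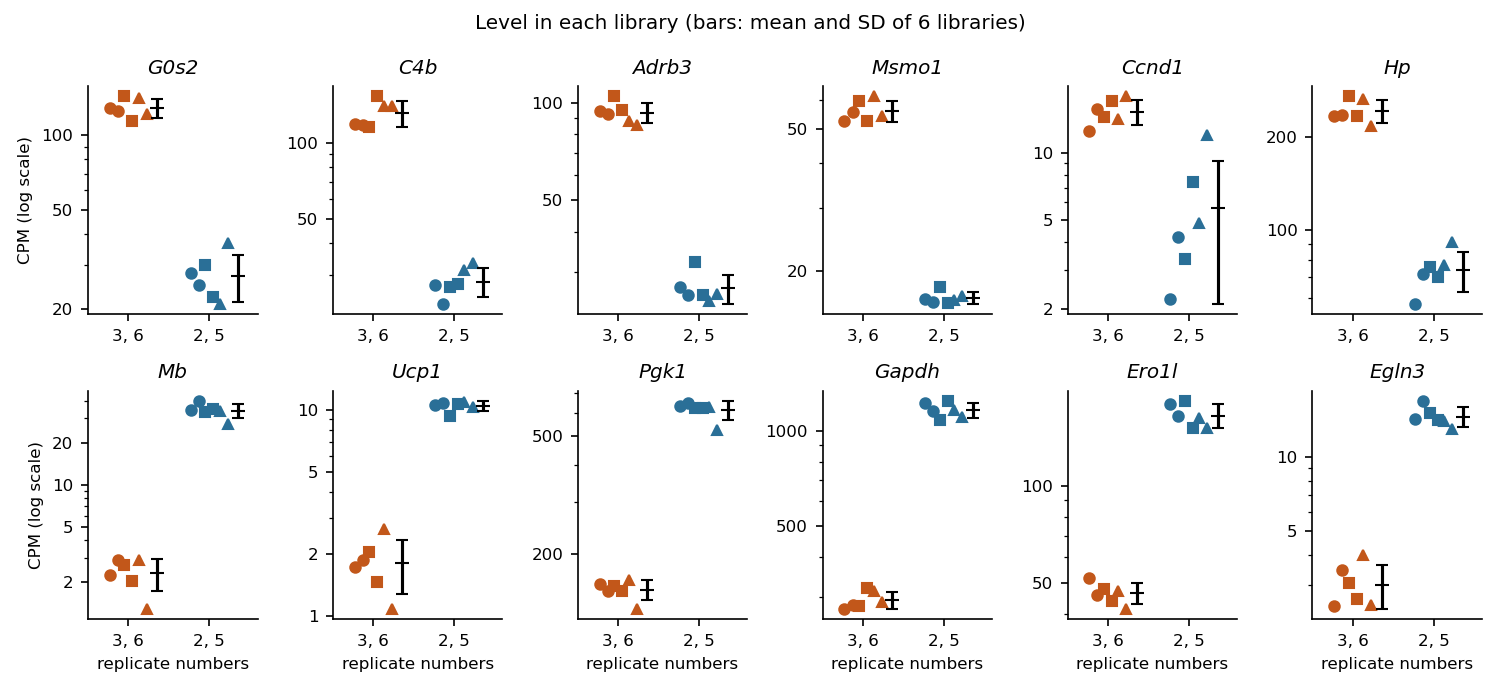
CPM on a log axis in each of the 12 libraries for 12 genes. Circles, squares and triangles are labelled 0 h, 4 h and 24 h, orange is numbers 3 and 6, blue numbers 2 and 5, and the bar is the mean with SD (n = 6). In the upper row numbers 3 and 6 lie above, as for G0s2 (114 to 143 against 21 to 37), and in the lower row they lie below, as for Gapdh (275 to 319 against 1082 to 1241).

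Glucose breakdown was the group with the lowest median among lists of 5 or more tested genes. In all, 7 of 22 tested genes were higher and 15 lower, with a median log2 fold change of -0.90. Ranges are given for numbers 3 and 6 first and for numbers 2 and 5 after "against". Pgk1, phosphoglycerate kinase, had 131 to 165 CPM (median 154) against 527 to 647 CPM (median 628), a log2 fold change of -2.01 (SE 0.055). Gapdh, the glyceraldehyde phosphate dehydrogenase often taken as a constant reference gene, had 275 to 319 CPM (median 286) against 1082 to 1241 CPM (median 1161), a log2 fold change of -1.99 (SE 0.052). Gapdh has many processed copies in the genome and Pgk1 has Pgk1-rs7, so their own levels are uncertain. Successive steps of the pathway lay on the same side. The named values, like those of other list members outside the naming rule, were picked after they were seen. They were -1.64 for Gpi1, -1.58 for Aldoa, -1.06 for Tpi1, -0.99 for Pgam1, -1.21 for Eno1 and -1.61 for Pkm. The glucose transporter Slc2a1 (-1.25), lactate dehydrogenase Ldha (-1.73) and the lactate exporter Slc16a3 (-1.77) were lower as well. Slc16a3 was scarce, with 0.334 CPM in the 24 h library with number 5 and 1.25 to 1.67 CPM in the others of its set.

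The 7 members that were higher are mostly regulators, first-step enzymes or tissue forms. They included Pfkfb4 and Pfkfb3 (0.89 and 0.68), which set the level of the phosphofructokinase activator, the hexokinases Hk2 and Hk1 (0.31 and 0.16) and the insulin-responsive transporter Slc2a4 (0.27). The muscle-type Pfkm (0.27) and the neuronal-type enolase Eno2 (0.99) complete them. Pfkfb4 had 5.56 to 7.99 CPM (median 6.54) against 2.75 to 4.34 CPM (median 3.71), and its sets did not overlap, nor did those of Pfkfb3, Hk2 and Eno2. Those of Hk1, Pfkm and Slc2a4 did overlap, as did those of Slc16a3 among the lower members.

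Genes switched on by low oxygen outside glycolysis lay on the same side as the enzymes. In that list 4 of 20 tested genes were higher and 15 lower, with a median log2 fold change of -0.86. Egln3, a prolyl hydroxylase that marks hypoxia-inducible factor for destruction and is itself induced by it, had 2.47 to 3.99 CPM (median 2.86) against 13 to 16.9 CPM (median 14.3). Its log2 fold change was -2.27 (SE 0.11), without overlap. Ero1l, also known as Ero1a, the oxidase that forms disulfide bonds in the endoplasmic reticulum, had 41.6 to 51.8 CPM (median 46.6) against 150 to 182 CPM (median 163), a log2 fold change of -1.83 (SE 0.053). Pdk1, a kinase that shuts pyruvate dehydrogenase, had 43.2 to 51.2 CPM (median 48.2) against 109 to 145 CPM (median 137), a log2 fold change of -1.50 (SE 0.053). Adm, adrenomedullin, went the other way with 11.2 to 14.7 CPM (median 13.2) against 4.48 to 9.34 CPM (median 5.14), a log2 fold change of 1.27 (SE 0.11), as did Epas1 (0.51), which encodes HIF2 alpha.

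The promoter windows of Pgk1 and Gapdh are shown because these 2 genes had the lowest values of the glycolysis list. Both come from RefSeq (GRCm38.p6), 250 bases before to 50 after the annotated start, written 5′ to 3′ along the gene. Capitals mark the core of the hypoxia response element, ACGTG, on either strand; it lies within the E-box CACGTG. The motif was chosen after the values were seen.
Pgk1 (chrX:106186850-106187149, + strand): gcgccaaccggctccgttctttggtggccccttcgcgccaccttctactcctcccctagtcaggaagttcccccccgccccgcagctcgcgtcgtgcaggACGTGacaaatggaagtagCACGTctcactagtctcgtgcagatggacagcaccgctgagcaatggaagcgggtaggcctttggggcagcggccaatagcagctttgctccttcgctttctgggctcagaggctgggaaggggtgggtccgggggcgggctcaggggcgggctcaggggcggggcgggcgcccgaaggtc
Gapdh (chr6:125165724-125166023, - strand): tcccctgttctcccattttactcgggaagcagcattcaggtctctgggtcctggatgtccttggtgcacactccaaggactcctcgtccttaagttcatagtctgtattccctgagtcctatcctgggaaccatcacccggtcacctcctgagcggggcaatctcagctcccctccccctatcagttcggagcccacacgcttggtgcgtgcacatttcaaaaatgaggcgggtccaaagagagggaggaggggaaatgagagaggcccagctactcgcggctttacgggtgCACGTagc
Pgk1 held 2 matches, 150 and 131 bases before the start, and Gapdh 1, 42 bases after it. Of the glycolysis list 13 of 21 windows held the core (61.9%) and of the hypoxia list 13 of 16 (81.2%), against 21.8% of the 27025 windows in the table. In the clock list the core was about as frequent as in the glycolysis list, with 11 of 18 windows (61.1%). It was in 6 of 11 windows of cyclic AMP feedback (54.5%), 10 of 26 of immediate early genes (38.5%) and 5 of 16 of cholesterol genes (31.2%). A match is only a match of letters and marks no bound site.

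Cholesterol synthesis was higher in numbers 3 and 6 nearly from end to end. In the list 20 of 24 tested genes were higher and 4 lower, with a median log2 fold change of 0.77, and none of the 24 overlapped between the sets. Over all tested genes 14.7% were higher and 15.7% lower without overlap. Msmo1, a methylsterol oxidase of the late pathway, had 52.4 to 61.5 CPM (median 54.8) against 16.3 to 18 CPM (median 16.6), a log2 fold change of 1.74 (SE 0.052). Sqle, squalene epoxidase, had 79.6 to 91.4 CPM (median 84.1) against 29.6 to 33.7 CPM (median 30.4), a log2 fold change of 1.47 (SE 0.045). Along the pathway the values were 0.49 for Hmgcs1, 1.32 for Mvk, 1.04 for Idi1, 1.06 for Fdft1 and 1.40 for Cyp51. Srebf2, which encodes SREBP2, was higher by 0.75.

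The 4 lower members handle sterol surplus. Mylip encodes a ubiquitin ligase that is switched on when sterol is plentiful. It had 12.1 to 14 CPM (median 12.7) against 40.2 to 41.8 CPM (median 41.2), a log2 fold change of -1.69 (SE 0.048). Abca1 and Abcg1, which export cholesterol, were lower, at -1.28 and -1.40 in log2, and so was Nr1h3, the liver X receptor alpha, at -0.32. The synthesis genes named here thus lay on the opposite side from export genes. All 24 members had the same sign for number 3 over 2 as for number 6 over 5. With no overlap between the sets, equal signs were fixed in advance.

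**Figure D3:**
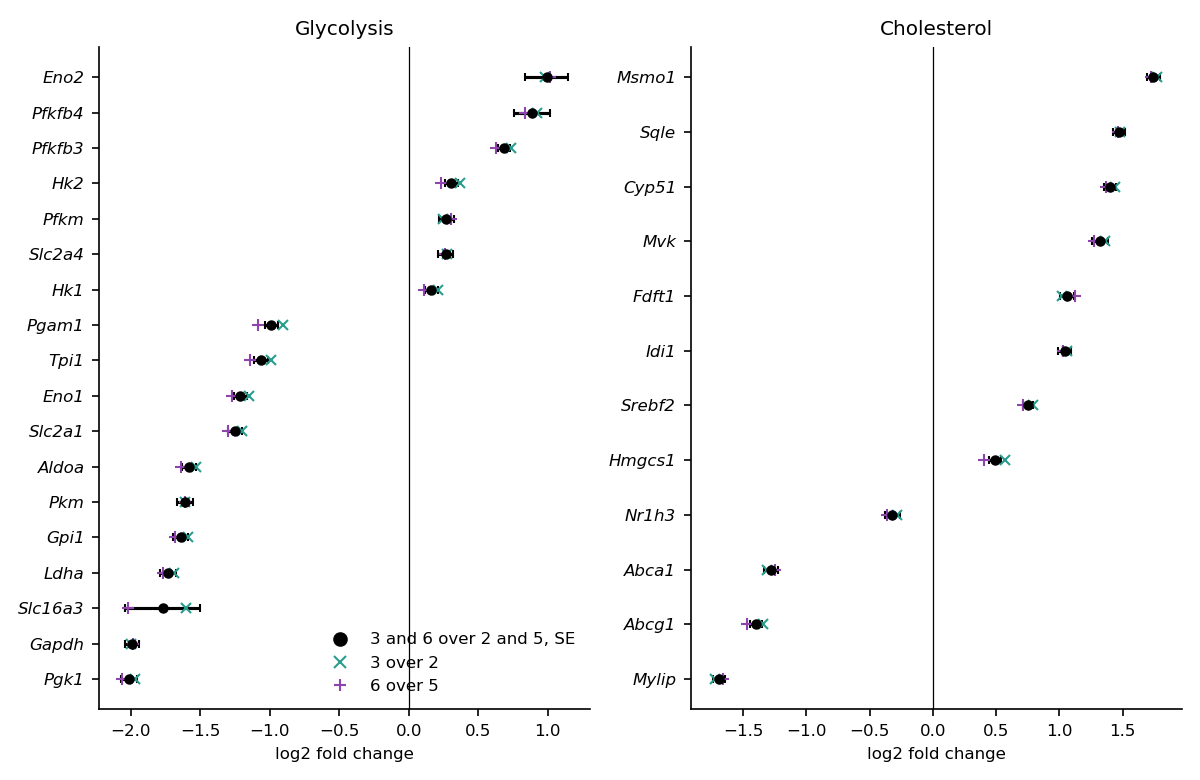
Log2 fold change of the members of the glycolysis and cholesterol lists that the text names. Dots with bars are numbers 3 and 6 over 2 and 5 with SE, crosses number 3 over 2, plus signs number 6 over 5. The 2 pairwise values have the same sign for every gene drawn, from Pgk1 at -2.01 to Eno2 at 0.99 and from Mylip at -1.69 to Msmo1 at 1.74. For genes whose sets do not overlap, equal signs are fixed in advance.

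The window of Hmgcs1, which encodes the synthase at the head of the pathway (133 ± 8.72 against 95.1 ± 5.04 CPM, SD, n = 6), is shown as the list's 1 match of 16 windows to the sterol element. Capitals mark TCACCCCAC on either strand, a motif chosen after the values were seen and held by 0.614% of all windows.
Hmgcs1 (chr13:119690101-119690400, + strand): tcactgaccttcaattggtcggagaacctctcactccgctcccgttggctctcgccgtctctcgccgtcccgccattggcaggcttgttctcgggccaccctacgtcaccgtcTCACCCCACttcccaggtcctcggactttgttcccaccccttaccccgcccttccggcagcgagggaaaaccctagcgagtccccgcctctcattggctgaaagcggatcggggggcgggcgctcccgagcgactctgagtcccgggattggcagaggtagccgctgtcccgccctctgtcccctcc
The match starts 137 bases before the start site. That the other 15 windows held none says only that these 9 letters were not in them.

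Transcripts of the respiratory chain encoded in the nucleus were lower as a block. In the list 0 of 44 tested genes were higher and 41 lower, against 28.3% and 27.2% of all tested genes. The median log2 fold change was -0.47. Without overlap 33 of the 44 were lower, against 15.7% of all tested genes. The summed level was 8610 to 10639 CPM in numbers 3 and 6 and 13045 to 14132 CPM in numbers 2 and 5. Atp5g3, a subunit of the rotor of ATP synthase, had 64.6 to 84.6 CPM (median 77.5) against 120 to 141 CPM (median 135), a log2 fold change of -0.82 (SE 0.061). Cox7a1, the muscle and brown fat form of a cytochrome oxidase subunit, had 7.31 to 14.6 CPM (median 11.2) against 14.3 to 27.7 CPM (median 23.3), a log2 fold change of -1.07 (SE 0.16), with overlapping sets. Ndufs7, of complex I, differed least, with 93.8 to 119 CPM (median 104) against 94.1 to 107 CPM (median 98.1). The differences were moderate in size, since only Cox7a1 passed a log2 fold change of 1.

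The mitochondrial genome's own 13 protein transcripts did not follow. In that list 2 of 13 tested genes were higher and 0 lower, with a median log2 fold change of 0.056. mt-Co1, a core subunit of cytochrome oxidase, had 22278 to 25637 CPM (median 24360) against 17443 to 20358 CPM (median 20153), a log2 fold change of 0.30 (SE 0.068). mt-Co2 had 6568 to 8462 CPM (median 7255) against 6720 to 7940 CPM (median 7693), a log2 fold change of -0.047 (SE 0.063), with overlapping sets. Their share of all counts was lowest in the 24 h library with number 5, as given above.

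In the tricarboxylic acid cycle and at its pyruvate entry, 2 of 31 tested genes were higher and 27 lower, with a median log2 fold change of -0.42. Pdk4, a starvation-induced kinase of pyruvate dehydrogenase, had 159 to 179 CPM (median 167) against 231 to 382 CPM (median 340), a log2 fold change of -0.98 (SE 0.096). Cs (-0.57), citrate synthase, Mdh2 (-0.61), Pdha1 (-0.69) and the pyruvate carrier Mpc1 (-0.85) were lower without overlap. Of fatty acid oxidation genes 1 of 24 tested genes were higher and 16 lower, with a median log2 fold change of -0.23 (0.042 with library totals alone). Acot2, a mitochondrial acyl-CoA thioesterase, had 19.1 to 23.7 CPM (median 20.6) against 40.4 to 60.8 CPM (median 52.7), a log2 fold change of -1.34 (SE 0.06). Hadhb, of the trifunctional protein, had 214 to 253 CPM (median 238) against 363 to 420 CPM (median 412), a log2 fold change of -0.78 (SE 0.049). Of the heat shock list, which was divided, Lonp1 and Hspa9 were 2 of the lower members. Lonp1, the protease of the mitochondrial matrix, had 177 to 204 CPM (median 185) against 476 to 560 CPM (median 540), a log2 fold change of -1.49 (SE 0.049), and Hspa9, the matrix chaperone, 602 to 704 CPM (median 637) against 990 to 1217 CPM (median 1168). For breakdown of branched-chain amino acids 2 of 19 tested genes were higher and 12 lower, with a median log2 fold change of -0.25 (0.016 with library totals alone). The list of mitochondrial biogenesis factors and ribosomal proteins lay near the median gene instead (8 of 33 higher, 11 lower, median -0.024, or 0.25 with library totals alone).

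Genes of stored fat did not share a direction. Of the lipolysis list 8 of 21 tested genes were higher and 8 lower, with a median log2 fold change of 0.038. Pnpla2, adipose triglyceride lipase, had 457 to 530 CPM (median 483) against 654 to 834 CPM (median 747), a log2 fold change of -0.63 (SE 0.055), while its inhibitor G0s2 was higher, as given above. Lipe, hormone-sensitive lipase, had 278 to 325 CPM (median 312) against 267 to 344 CPM (median 300), a log2 fold change of 0.038 (SE 0.049) with overlapping sets. Plin1, which coats the lipid droplet, was higher with 152 to 188 CPM (median 179) against 101 to 118 CPM (median 106), a log2 fold change of 0.71 (SE 0.051). Pnpla3, a relative of the lipase, had 12.2 to 16.1 CPM (median 13.6) against 3.87 to 5.55 CPM (median 4.89), a log2 fold change of 1.54 (SE 0.093).

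In fatty acid synthesis 10 of 21 tested genes were higher and 8 lower, with a median log2 fold change of 0.098. Scd1, the main desaturase of fat cells, had 4743 to 6151 CPM (median 5584) against 11268 to 13270 CPM (median 12092), without overlap. Fasn, fatty acid synthase, had 507 to 612 CPM (median 572) against 388 to 537 CPM (median 392), a log2 fold change of 0.44 (SE 0.076). Slc25a1, the mitochondrial citrate exporter, was higher at 0.63 (SE 0.052) in log2. Scd1 and Fasn thus lay on opposite sides. In glyceride synthesis Gyk, glycerol kinase, had 31 to 39.9 CPM (median 33.4) against 53.1 to 70.8 CPM (median 68), a log2 fold change of -0.97 (SE 0.056), and Pck1, the enzyme of glyceroneogenesis, 29.8 to 34.7 CPM (median 33.9) against 17.1 to 22.7 CPM (median 19.6), a log2 fold change of 0.73 (SE 0.06). The list as a whole was even (6 of 18 higher, 6 lower, median 0.01), as was that of fatty acid uptake and activation (8 of 18 higher, 7 lower, median 0.062).

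Genes of heat production and fat cell identity were likewise split. In the thermogenic list 6 of 20 tested genes were higher and 7 lower, with a median log2 fold change of 0.07. Ppargc1a, coactivator of mitochondrial biogenesis, had 124 to 140 CPM (median 131) against 106 to 119 CPM (median 113), a log2 fold change of 0.22 (SE 0.041), and did not overlap. Cidea, a lipid droplet protein of brown fat, had 13.6 to 17.2 CPM (median 15.2) against 12.5 to 15.3 CPM (median 13.8), with overlap. Dio2, which activates thyroid hormone, was too scarce to compare (0.195 to 0.771 against 0 to 0.535 CPM). Ppara, a receptor for fatty acids, had 39.1 to 48.8 CPM (median 42.5) against 26.6 to 32.2 CPM (median 31.1), a log2 fold change of 0.53 (SE 0.048). Adipoq, adiponectin, had 687 to 876 CPM (median 787) against 540 to 655 CPM (median 586), a log2 fold change of 0.38 (SE 0.061). Pparg, the master regulator of fat cells, had 120 to 137 CPM (median 133) against 122 to 154 CPM (median 145), a log2 fold change of -0.13 (SE 0.047), or 0.14 with library totals alone. The lists of adipogenic factors (6 of 23 higher, 11 lower, median -0.13, or 0.14 with library totals alone) and secreted adipokines (6 of 18 higher, 9 lower, median -0.21, or 0.052 with library totals alone) held members on each side. Fgf21, a hormone of brown fat, had only 0 to 9 counts in a library and was not tested. In bulk RNA, fewer cells of a type and less RNA per cell cannot be told apart.

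Along the adrenergic pathway both beta receptors named here were higher, and most genes that damp the signal were lower. Adrb3 was given above. Adrb1, the beta-1 receptor, had 3.22 to 5.11 CPM (median 4.53) against 2.67 to 3.67 CPM (median 2.99), a log2 fold change of 0.61 (SE 0.13) with overlap. Adcy3, an adenylyl cyclase, was lower, with 11.3 to 13.3 CPM (median 12.6) against 25.7 to 31.5 CPM (median 28.1), a log2 fold change of -1.20 (SE 0.053). Receptors, G proteins, cyclases and kinases of the pathway were divided as a list (11 of 26 higher, 9 lower, median 0.024). Of genes that damp cyclic AMP 2 of 20 tested genes were higher and 16 lower, with a median log2 fold change of -0.54. Pde4b, a phosphodiesterase that destroys cyclic AMP, had 9.63 to 11.1 CPM (median 10.2) against 27.3 to 35.7 CPM (median 29.3), a log2 fold change of -1.57 (SE 0.065). Arrdc3, an arrestin-like protein that pulls beta receptors into the cell, had 27 to 33.3 CPM (median 30.1) against 71.7 to 88.4 CPM (median 85.4), a log2 fold change of -1.50 (SE 0.052). Of the 2 exceptions Pde4a differed more, with 39.8 to 48.1 CPM (median 42.1) against 22.3 to 37 CPM (median 25.1), a log2 fold change of 0.77 (SE 0.08). Crem, which encodes a repressor induced by cyclic AMP, had 5.05 to 6.57 CPM (median 5.78) against 8.96 to 10.9 CPM (median 9.44), a log2 fold change of -0.71 (SE 0.084).

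Immediate early genes, which respond to signals within minutes, were mostly lower. In the list 2 of 34 tested genes were higher and 25 lower, with a median log2 fold change of -0.39. Fosl2, an AP-1 factor, had 126 to 139 CPM (median 131) against 288 to 322 CPM (median 306), a log2 fold change of -1.22 (SE 0.042). Nr4a1, an orphan nuclear receptor, had 5.35 to 6.91 CPM (median 5.84) against 8.79 to 12 CPM (median 10.2), a log2 fold change of -0.84 (SE 0.094), again without overlap. Gem, a small GTPase, had 4.69 to 8.87 CPM (median 6.83) against 14.9 to 21.4 CPM (median 17.5), a log2 fold change of -1.42 (SE 0.11). Not every member separated the sets. Fos had 2.87 to 4.68 CPM (median 3.2) against 4.34 to 7.5 CPM (median 5.42), a log2 fold change of -0.73 (SE 0.12) with overlapping sets. Srf, the factor that drives many of these genes, was higher at 26.8 to 30.9 CPM (median 29.4) against 19.7 to 28 CPM (median 21.4), a log2 fold change of 0.43 (SE 0.058), and its sets overlapped. Per1, a clock gene that cyclic AMP also induces, had 32.5 to 33.9 CPM (median 33.2) against 40.5 to 45.1 CPM (median 43.8), a log2 fold change of -0.39 (SE 0.04). For Klf transcription factors 0 of 12 tested genes were higher and 11 lower, with a median log2 fold change of -0.53. Klf4 had 4.42 to 6.24 CPM (median 5.5) against 9.68 to 13.6 CPM (median 11.4), a log2 fold change of -1.09 (SE 0.091). The dual-specificity phosphatases that restrain MAP kinases went both ways, with Dusp7 at 0.76 (SE 0.055) in log2 and Dusp5 at -1.06 (SE 0.1) in log2. The whole list of MAP kinase feedback genes was divided (9 of 20 higher, 8 lower, median -0.086, or 0.19 with library totals alone).

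The window of Maff is shown because this gene had the largest difference among immediate early and clock genes whose window held the palindromic cyclic AMP response element TGACGTCA, in capitals. Maff encodes a small basic leucine zipper protein and had 10.1 ± 0.987 against 18.4 ± 1.82 CPM (SD, n = 6).
Maff (chr15:79347270-79347569, + strand): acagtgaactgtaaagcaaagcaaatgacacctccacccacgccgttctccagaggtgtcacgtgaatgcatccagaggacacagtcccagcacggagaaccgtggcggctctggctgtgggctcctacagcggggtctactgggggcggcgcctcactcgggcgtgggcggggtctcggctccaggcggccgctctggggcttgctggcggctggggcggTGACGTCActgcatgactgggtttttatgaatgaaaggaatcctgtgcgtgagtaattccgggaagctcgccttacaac
The element starts 29 bases before the start site. It was in 2 of 26 windows of the immediate early list (7.69%), Maff and Btg2, in 1 of 18 of the clock list (Hlf), in 1 of 21 of the glycolysis list (Ldha), in 0 of 11 of the cyclic AMP feedback list, and in 2.03% of all windows. The RefSeq table gave windows for 5 of the 12 genes with the largest positive difference and 10 of the 12 with the largest negative one, and none of those held it.

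Complement and contractile genes were among the higher groups. For complement 8 of 11 tested genes were higher and 2 lower, with a median log2 fold change of 0.78. Cfd, the fat cell protease adipsin, had 1085 to 1332 CPM (median 1270) against 524 to 611 CPM (median 546), a log2 fold change of 1.14 (SE 0.06). C1s1, a protease of the classical pathway, had 38.9 to 45.4 CPM (median 40.8) against 15.6 to 25 CPM (median 17.7), a log2 fold change of 1.23 (SE 0.062), whereas C3 was lower at -0.24 (SE 0.052) in log2, or 0.041 with library totals alone. For smooth muscle and contractile genes 10 of 13 tested genes were higher and 1 lower, with a median log2 fold change of 0.84. Myl9, a myosin light chain, had 13.8 to 19.2 CPM (median 14.6) against 4.22 to 10.7 CPM (median 5.05), a log2 fold change of 1.54 (SE 0.14), and Cnn2, a calponin, 73 to 98.6 CPM (median 87.9) against 29.7 to 57.7 CPM (median 35.6), a log2 fold change of 1.25 (SE 0.11). Of 5 defining smooth muscle markers 4 were tested, and 3 of these were higher. Acta2, smooth muscle actin, had 47.6 to 65.6 CPM (median 54.1) against 21.7 to 43.4 CPM (median 26.5), a log2 fold change of 1.05 (SE 0.11) without overlap. Tagln had 9.18 to 14.4 against 4.81 to 9.34 CPM (0.85 in log2) and Lmod1 1.9 to 3.13 against 0.334 to 1.95 CPM (1.08 in log2), both with overlap. Myh11, with 0.839 to 1.46 against 0.667 to 1.75 CPM, was not called, and Cnn1 had at most 4 counts. The 1 lower member of the list was Ebf1, a transcription factor, with 268 to 346 against 335 to 383 CPM (-0.27 in log2, with overlap). The summed level of the contractile list was 638 to 770 CPM against 570 to 658 CPM, and Ebf1 made up a large part of it. The part of smooth muscle-like cells in these differences was not tested. For Myl9, Cnn2 and Acta2 the 24 h library with number 5 was the highest of its set, and without it the values were 1.61, 1.31 and 1.12. The same library was the highest of its set for C1s1, which was at 1.26 without it.

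In the extracellular matrix 22 of 39 tested genes were higher and 12 lower, with a median log2 fold change of 0.35. Col8a1 had 39.8 to 51.5 CPM (median 43.7) against 18.1 to 34 CPM (median 20.4), a log2 fold change of 1.05 (SE 0.11), while Col15a1, a basement membrane collagen, had 19 to 25.9 CPM (median 25) against 61.1 to 87.8 CPM (median 78.2), a log2 fold change of -1.69 (SE 0.07). Among YAP targets and matricellular genes 12 of 18 tested genes were higher and 2 lower, with a median log2 fold change of 0.44. Amotl2, a YAP target, had 206 to 246 CPM (median 220) against 109 to 131 CPM (median 121), a log2 fold change of 0.89 (SE 0.048). Tnc, tenascin C, was the opposite with 42.1 to 64 CPM (median 45.5) against 84.9 to 149 CPM (median 95.1), a log2 fold change of -1.04 (SE 0.13). Markers of preadipocytes and fibroblasts went both ways (7 of 15 higher, 4 lower, median 0.076). The summed level of that list was 1141 to 1408 CPM against 1075 to 1343 CPM. Pdgfra, a receptor of fibroblast-like precursors, had 123 to 167 CPM (median 141) against 78.9 to 126 CPM (median 88.6), a log2 fold change of 0.64 (SE 0.1). The 24 h library with number 5 held the highest Pdgfra, Col8a1, Amotl2 and Tnc of its set. Without it the values were 0.70, 1.09, 0.91 and -0.96. The part of precursor cells in any difference was not tested.

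Among hormones and growth factors Rbp4, the retinol carrier, had 1.68 to 2.54 CPM (median 2.08) against 11 to 13.4 CPM (median 12.7), a log2 fold change of -2.62 (SE 0.1). Angptl4, an inhibitor of lipoprotein lipase, was higher with 296 to 392 CPM (median 343) against 172 to 270 CPM (median 211), a log2 fold change of 0.68 (SE 0.1). Irs2, an insulin receptor substrate, had 140 to 160 CPM (median 148) against 214 to 304 CPM (median 274), a log2 fold change of -0.87 (SE 0.058). Igfbp7 had 198 to 251 CPM (median 218) against 111 to 179 CPM (median 116), a log2 fold change of 0.83 (SE 0.065), and Pappa, a protease that frees insulin-like growth factor, 10.7 to 14.5 CPM (median 12.1) against 23.2 to 30.5 CPM (median 25.9), a log2 fold change of -1.15 (SE 0.077). Members of the insulin and IGF list thus lay on both sides (7 of 22 higher, 13 lower, median -0.21, or 0.056 with library totals alone), and so did those of BMP, TGF beta and ID genes (5 of 27 higher, 12 lower, median -0.08, or 0.19 with library totals alone). Of the glucocorticoid and metallothionein list 3 of 17 tested genes were higher and 13 lower, with a median log2 fold change of -0.43. Hsd11b1, which regenerates active glucocorticoid, had 6.92 to 8.07 CPM (median 7.48) against 18.8 to 23.9 CPM (median 22.1), a log2 fold change of -1.56 (SE 0.066). Mt2 had 6.6 to 8.82 CPM (median 8.13) against 18.4 to 24.4 CPM (median 23.2), a log2 fold change of -1.47 (SE 0.085), with a near copy in Mt1.

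Stress programmes differed in how far they leaned. Of NRF2 targets 2 of 23 tested genes were higher and 19 lower, with a median log2 fold change of -0.33. Slc7a11, the cystine importer, had 9.7 to 12 CPM (median 10.2) against 27.6 to 29.7 CPM (median 28.6), a log2 fold change of -1.48 (SE 0.055), and Gclc, the first enzyme of glutathione synthesis, 22.3 to 25.5 CPM (median 24.6) against 44 to 51.4 CPM (median 49.1), a log2 fold change of -1.01 (SE 0.047). In the integrated stress response 3 of 31 tested genes were higher and 16 lower, with a median log2 fold change of -0.15 (0.13 with library totals alone), with Trib3, a pseudokinase it induces, at -1.22 (SE 0.058) in log2. Heat shock genes were divided (9 of 21 higher, 8 lower, median 0.087). The unfolded protein response was divided (8 of 22 higher, 6 lower, median -0.046, or 0.23 with library totals alone). Its sensor Ern1 had 60.2 to 67 CPM (median 64.2) against 112 to 125 CPM (median 119), a log2 fold change of -0.90 (SE 0.035), and the chaperone Calr 534 to 653 CPM (median 575) against 403 to 435 CPM (median 421), a log2 fold change of 0.47 (SE 0.045). Of interferon response genes 17 did not pass in either direction (2 of 30 higher, 11 lower, median -0.26, or 0.031 with library totals alone), and Rsad2, an antiviral enzyme, had 7.71 to 12.1 CPM (median 8.67) against 10.1 to 32.7 CPM (median 14.5), a log2 fold change of -0.83 (SE 0.19) with overlap. NF-kB and cytokine genes included Ccl7 at 1.01 (SE 0.085) in log2 and Cxcl10 at -0.91 (SE 0.14) in log2. As a list they leaned lower (5 of 23 higher, 11 lower, median -0.30). In the circadian list (5 of 22 higher, 13 lower, median -0.20, or 0.071 with library totals alone) Dbp, an output factor, had 15.9 to 18.6 CPM (median 17.7) against 9.59 to 12.7 CPM (median 10.8), a log2 fold change of 0.72 (SE 0.071), and Arntl, which encodes BMAL1, 6.68 to 7.75 CPM (median 6.82) against 10 to 15.5 CPM (median 11.6), a log2 fold change of -0.80 (SE 0.078).

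Ribosomal protein transcripts were higher by a small amount. In the list 30 of 44 tested genes were higher and 0 lower, with a median log2 fold change of 0.18, and the highest member was Rpl3 with 178 to 208 CPM (median 199) against 142 to 153 CPM (median 148), a log2 fold change of 0.40 (SE 0.042). These genes have many near copies, so single values are uncertain. Proteasome (4 of 35 higher, 13 lower, median -0.048, or 0.22 with library totals alone), cell cycle (10 of 32 higher, 9 lower, median -0.0021, or 0.26 with library totals alone), replication histone (6 of 22 higher, 3 lower, median -0.02, or 0.26 with library totals alone), lysosome (11 of 28 higher, 7 lower, median 0.048), peroxisome (4 of 28 higher, 12 lower, median -0.054, or 0.21 with library totals alone) and sphingolipid genes (6 of 21 higher, 8 lower, median -0.057, or 0.18 with library totals alone) lay near the median gene as lists. Single members stood out. Cdkn1c, an inhibitor of the cell cycle, had 5.15 to 7.41 CPM (median 6.7) against 11.7 to 23 CPM (median 18.9), a log2 fold change of -1.53 (SE 0.1). Acer2, a ceramidase, had 14.4 to 19 CPM (median 18.4) against 52.4 to 61.7 CPM (median 58.5), a log2 fold change of -1.71 (SE 0.057), and Lipa, the lysosomal acid lipase, 74.8 to 86.2 CPM (median 81.9) against 126 to 174 CPM (median 159), a log2 fold change of -0.92 (SE 0.051). Abcd2, a peroxisomal fatty acid transporter, had 54.9 to 63.4 CPM (median 58.4) against 27.5 to 31.4 CPM (median 28.4), a log2 fold change of 1.02 (SE 0.048).

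**Figure D4:**
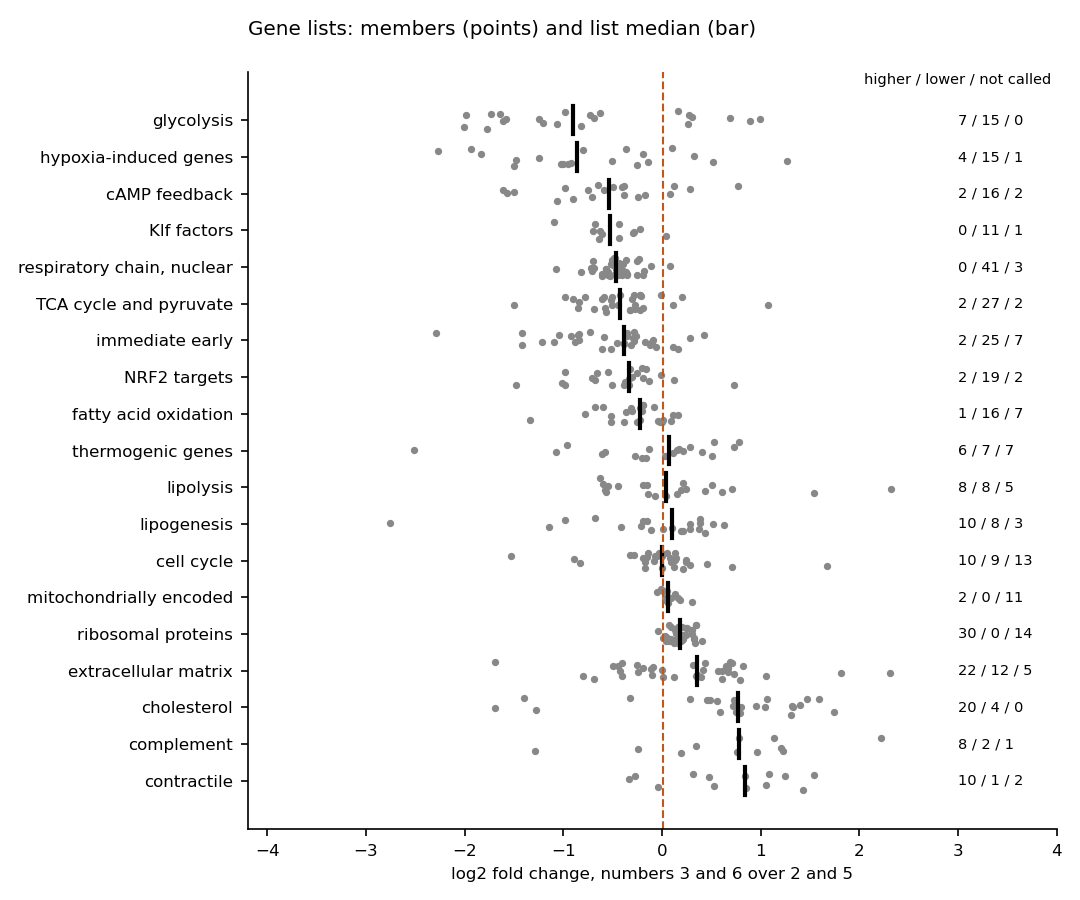
Log2 fold change of numbers 3 and 6 over 2 and 5 for each tested member (points) of 19 gene lists, with the list median (black bar) and the median of all tested genes (dashed line, 0.0049). Figures at the right count members higher, lower and not called. Medians run from -0.90 for glycolysis to 0.84 for contractile genes. Library totals alone moved the median of all tested genes to 0.26. The median of fatty acid oxidation then became 0.042, that of cell cycle genes 0.26, and no other list drawn changed sign. Less the median of all tested genes, these 2 lists were then at -0.22 and 0.0032.

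Each set joins a pair of numbers that can be compared separately, since numbers 3 and 2 share no library with numbers 6 and 5. Number 3 against 2 gave 3290 genes higher and 3245 lower, and number 6 against 5 gave 2929 and 2961. Across the 14442 genes the 2 sets of log2 fold changes correlated with r = 0.76, a description over genes that are not independent. At a log2 fold change of at least 1 in size, 799 genes passed in the first and 886 in the second. The 537 that passed in both with the same sign were 67.2% and 60.6% of these lists. Because the numbers were put together for their likeness, this repeats the rule. Without the 24 h library with number 5, r was 0.737 over 14642 genes, number 6 against 5 gave 2844 higher and 3035 lower, and 586 genes passed the fold in both (68.3% and 56.8%). For Mb the values were -3.70 for number 3 over 2 and -4.08 for number 6 over 5, for G0s2 2.41 for number 3 over 2 and 2.24 for number 6 over 5, for Gapdh -2 for number 3 over 2 and -1.98 for number 6 over 5 and for Msmo1 1.77 for number 3 over 2 and 1.72 for number 6 over 5. List medians were -0.86 and -0.96 for glycolysis, 0.79 and 0.76 for cholesterol, and -0.40 and -0.54 for the respiratory chain.

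**Figure D5:**
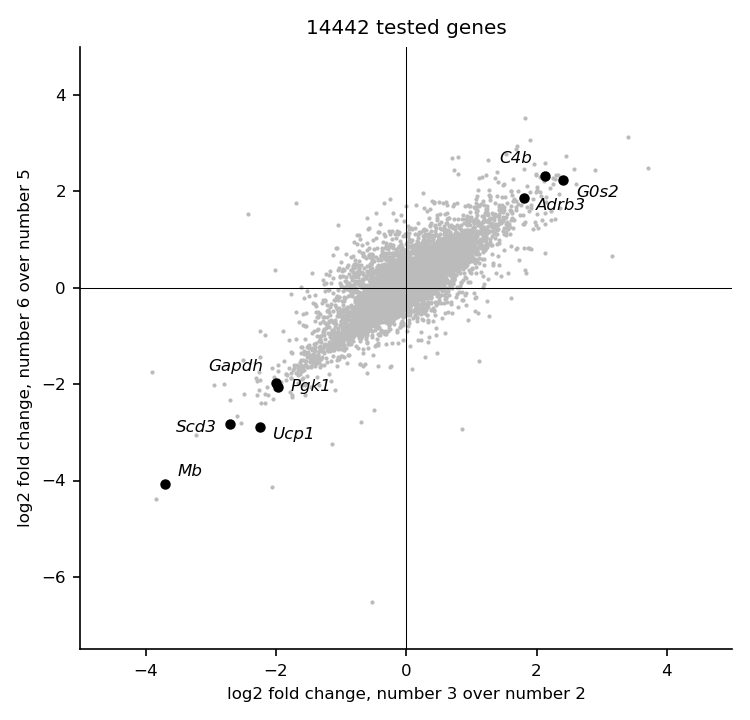
Log2 fold change of number 6 over 5 (vertical) against number 3 over 2 (horizontal) for each of 14442 tested genes, with 8 genes named. The points follow a rising band (r = 0.76), with Mb lowest of the named genes and G0s2 and C4b at the other end.

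Within a set the numbers are alike by the rule that formed it, so these values too are a description. Number 6 against 3 and number 5 against 2 each gave 0 genes at edgeR's threshold, with 1473 (10.2%) and 718 (4.97%) at an unadjusted p under 0.05. Without the 24 h library with number 5 they again gave 0, with 1667 (11.4%) and 593 (4.05%) unadjusted. The SD of log2 fold changes over genes was 0.21 and 0.28 there, against 0.49 and 0.54 between sets. For G0s2 number 6 differed from 3 by -0.19, and number 5 from 2 by -0.028.

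Against the libraries with numbers 1 and 4, both sets share the same reference, so only levels are set side by side. G0s2 was highest in numbers 1 and 4 (278 to 342 CPM), and the order was 1 and 4, then 3 and 6, then 2 and 5, with no overlap between neighbours. Ucp1 (12.8 to 18 CPM) and Mb (69.9 to 88 CPM) were also highest in numbers 1 and 4, but there numbers 2 and 5 came next. Pgk1 (620 to 788 CPM) and Gapdh (1037 to 1223 CPM) in numbers 1 and 4 overlapped with numbers 2 and 5, so that numbers 3 and 6 alone lay below. Msmo1 (50.9 to 60.9 CPM) overlapped with numbers 3 and 6, so that numbers 2 and 5 alone lay below. Fos had 119 to 226 CPM and Nr4a1 81.4 to 141 CPM in numbers 1 and 4, far above either other set. C4b had its lowest level there (9.41 to 12.9 CPM).

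Labelled time was not used to form the sets, so it can be tested within the 12 libraries, 4 at each time. The times are those of the labels. Whether numbers and times were exchanged for any library cannot be told from them, and every labelled-time value and count of calls is given under that limit. No gene passed edgeR's threshold at 4 h against 0 h, at 24 h against 0 h or at 24 h against 4 h. An unadjusted p under 0.05 was found for 770, 942 and 641 genes. limma-voom also called 0 in each (857, 1063 and 934 unadjusted). DESeq2 called 0, 21 and 1 (587, 770 and 544 unadjusted), the last being Pcnxl3 with a DESeq2 adjusted p of 0.039.

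With the replicate number as a block, 6 genes (0.0415%) passed as higher at 24 h than at 0 h, and 0 passed at 4 h against 0 h or 24 h against 4 h (936 and 689 unadjusted). The block is an alternative only, since the libraries did not show pairing by number beyond the set. In numbers 2, 3, 5 and 6 in turn Il1rl1, the interleukin 33 receptor, had 8.64, 5.65, 9.62 and 4.69 CPM at 0 h and 15.7, 6.94, 19 and 11 CPM at 24 h. It was higher at 24 h in 4 of 4 numbers, by 0.85 in log2 in the blocked fit (SE 0.12; edgeR adjusted p = 0.0115). S100a4, a calcium-binding protein of motile cells, had 15.1, 18.8, 16.5 and 21.9 CPM at 0 h and 20, 29.3, 16.3 and 35.1 CPM at 24 h. It was higher in 3 of 4 numbers, by 0.53 in log2 (SE 0.076, edgeR adjusted p = 0.0115), and level in number 5, whose 24 h library stood apart. Hist1h2ap, a replication histone, had 282, 338, 348 and 323 CPM at 0 h and 355, 428, 395 and 415 CPM at 24 h, higher in 4 of 4 by 0.31 (SE 0.047, edgeR adjusted p = 0.0115). Emp3 (0.52), Shisa5 (0.29) and Akap12 (0.28) passed with edgeR adjusted p of 0.0357, 0.039 and 0.0434, each higher in 4 of 4 numbers. Histone copies are nearly identical, so the value of Hist1h2ap is uncertain. The 6 calls fell to 2, Hist1h2ap and S100a4, without the 24 h library with number 5, and to 0 without the 0 h library with number 6 or the 24 h library with number 2; without the 4 h library with number 6 there were 38.

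Whether the difference between sets itself differed between labelled times was tested as an interaction. No gene passed with edgeR (378 at an unadjusted p under 0.05) or with limma-voom (484). With the replicate block 1 gene passed, Gm2260, a predicted gene (edgeR adjusted p = 0.000659), and it also passed without the 24 h library with number 5 (0.000601). Its counts were few, with 1.16 and 2.65 CPM at 0 h and 0 at 4 h and 24 h in numbers 2 and 5, against 1.06 to 3.62 CPM in numbers 3 and 6. A p that misses the threshold does not show that the set difference was the same at all times. Across genes the set difference at 0 h correlated with that at 4 h by r = 0.785 and with that at 24 h by r = 0.663, as a description. Without the 24 h library with number 5 these were 0.776 and 0.747.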

How the data were processed

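The 12 libraries with replicate numbers 2, 3, 5 and 6 were taken from 1 table of 18. Its values are expected counts per gene that the authors deposited. The labels and the table's name point to salmon, and the submitters' processing notes name mm10, edgeR and limma. For salmon's version, the annotation and the strand mode nothing is stated in the sources at hand. As deposited, 27.4% of values above 0 were not whole. Values were rounded to whole numbers.

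Genes were filtered with filterByExpr (minimum count 10, total 15), which left 14442 of 45706 and at least 99.9% of each library's counts. Libraries were scaled by TMM. edgeR 4.0.16 (quasi-likelihood, adjusted p under 0.05 by Benjamini-Hochberg over all tested genes, R 4.3.3) was fitted with number set and labelled time, and in a further fit with their interaction. CPM use TMM-scaled totals, and log2 CPM a prior count of 2. limma 3.58.1 and DESeq2 1.42.0 served as alternatives, with other scalings, filters and left-out libraries. The fitting step was tested on simulated data in which far fewer genes changed than were called here. The scaling under so many changes was therefore not tested by it. Python 3.11.15 made the tables and matplotlib 3.10.9 the plots. Gene positions are those of GENCODE M21, and promoter windows those of RefSeq. The p-values measure the spread between these libraries.

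The sets, the 50 gene lists and the rule for named genes were chosen with earlier results of these data known. The rule took 20 preset genes, 12 genes with the largest difference in each direction (mean log2 CPM of at least 3, sets not overlapping, predicted genes left out), and up to 3 members of each list (mean log2 CPM of at least 2). These parts gave 157 genes, of which a few are counted but not reported by name here. The rule also allowed up to 5 genes past the threshold in a time contrast, which were not added to that count. All 6 genes of the blocked 24 h contrast are named instead. Promoter windows other than that of Maff, and list members outside the rule, were picked after their values were seen.

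The replicate block took the numbers as pairing the libraries across times. Same-numbered libraries deviated together from the labelled time means (12 pairs, r = 0.25 to 0.587). Libraries of the other number in the same set deviated together about as closely (r = 0.211 to 0.56). After set and time were both removed, same-numbered pairs had r = -0.258 to 0.187 (median -0.117). Pairs with the other number of the same set then had r = -0.434 to 0.141 (median -0.165). Pairing by number beyond the set was thus not shown. Each number lies wholly within 1 set, so the block cannot enter the set contrast.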

Additional observations from a re-analysis of the deposited data

Results flagged for a closer look

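In 304 groups of 6 libraries (most genes with a value in the text and 7 composition measures, in each set), 42 had a library far from the other 5 by Dixon's gap. Chance flags about 1 in 20 groups. The library labelled 24 h with number 5 was that library in 29 of the 42.

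Its composition differed from the rest of its set. Yam1 and Gm26917 took 41.5% of its counts against at most 9.32% in the others, Lars2 4.3% against at most 0.0203%, mitochondrial ribosomal RNA 18.1% against at most 5.75%, and its 10 most abundant genes 68.4% against at most 26.8%. Mitochondrial protein transcripts took 2.91% against at least 7.93%.

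Among the genes flagged by the gap, the same library was highest of numbers 2 and 5 for Cemip (21 CPM, the others 7.56 to 8.83), Nov (21), Slit3 (13.7), Igfbp7 (179), Pdgfra (126), Myl9 (10.7), Acta2 (43.4), Cnn2 (57.7), Pde4a (37), Srf (28), Fasn (537) and Mvk (10). It was lowest for Pgk1 (527 CPM, the others 622 to 647), Pdk1 (109), Pfkm (26), Slc16a3 (0.334), Pdk4 (231), Gyk (53.1), Arrdc3 (71.7), Cox7a1 (14.3), Col15a1 (61.1), Myh11 (0.667), Dio2 (0) and mt-Co1 (17443). Its part in the set differences of these genes, beyond the values without it, was not tested.

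In numbers 3 and 6, the 4 h library with number 6 had the lowest total (8924675), the fewest genes detected (18137) and the lowest share of mitochondrial protein transcripts (8.48%). It was also highest for Fos (4.68 CPM) and Maff (12 CPM) and lowest for Dio2 (0.195 CPM). The 24 h library with number 6 was lowest for Acer2 (14.4 CPM), Col15a1 (19 CPM) and Lipe (278 CPM), and the 4 h library with number 3 for Dusp5 (6.34 CPM). In numbers 2 and 5, the 4 h library with number 2 was highest for Adrb3 (32.1 CPM) and Mki67 (634 CPM) and lowest for Ucp1 (9.32 CPM).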

How the results depend on the processing

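Of 14 ways to count genes that differed between the sets, library totals alone moved the balance most, to 2755 higher and 439 lower. Upper-quartile scaling gave 4676 and 3389, and requiring a log2 fold change of at least 1 in size gave 421 and 301. Leaving out 1 library gave 3638 to 4033 higher and 3504 to 4041 lower. Of the 157 named genes, all moved by less than their spread within sets under relative log expression scaling, with all 18 libraries and without each library in turn. With library totals alone 127 moved further, and Pparg (0.138), Hist1h3e (0.0307) and C3 (0.0413) changed sign.

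Within labelled time, 24 h against 0 h gave 0 to 4 genes when 1 library was left out (3 without the 4 h library with number 2, 4 without the 4 h library with number 6, 1 without the 24 h library with number 3), and both other contrasts gave 0. The interaction gave 0 to 6, with 6 without the 24 h library with number 2 and 1 without the 4 h library with number 2 or number 5. Without a filter on low counts the calls were 106 at 4 h against 0 h, 239 at 24 h against 0 h, 120 at 24 h against 4 h and 20 for the interaction; the cause was not tested. DESeq2 called 21 at 24 h against 0 h and 1 at 24 h against 4 h.

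With the replicate block 6 genes were called at 24 h against 0 h and 1 in the interaction, and with the block but no 24 h library with number 5, an alternative chosen after seeing the data, 2 and 1. The block changed no other call. Library weights, leaving out the 3 libraries of lowest total, and number contrasts without the 24 h library with number 5 were chosen likewise. Depth limits the least abundant genes, such as Dio2 at 0 to 18 counts.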
